A study of Homo sapiens with 9 samples.

Results

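This comparison sets 22Rv1 cells carrying hairpin 1 against CHD9 beside 22Rv1 cells carrying a hairpin against GFP. It takes 6 of the 9 libraries of the study, 3 on each side, and every gene that passed a filter on low counts, which is 16346 of the 67071 genes in the deposited table. 22Rv1 is an established human prostate carcinoma line, grown from a xenograft. The control cells, shGFP, are labelled wild type with a knockdown of GFP, and the hairpin 1 cells, shCHD9_1, are labelled CHD9 knockdown by the first of 2 short hairpin RNAs. Both groups were kept in RPMI with serum, and poly(A) RNA was made into libraries with a directional kit. The labels do not give a time after hairpin delivery, the hairpin sequences or a selection step. Nothing states that the 3 libraries of a group come from separate cultures; p-values here therefore describe the spread among these libraries, which may be technical.

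CHD9 belongs to the CHD family, ATP-dependent enzymes that carry a helicase-like motor and a pair of chromodomains and move or restructure nucleosomes. A short hairpin RNA is processed into a small interfering RNA that guides Argonaute to a matching mRNA. An interfering RNA can also lower other mRNAs that match part of it, which is why studies of this kind commonly use more than 1 hairpin for a gene. The series itself concerns editing of N6-methyladenosine in RNA with METTL3, and its design text names the comparison of control with CHD9 knockdown cells.

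Total counts were 18911142, 22544162 and 26103588 in shGFP and 20572689, 22878947 and 27275052 with hairpin 1. The 2 groups lay at opposite ends of the first principal component of log2 CPM, the counts scaled to a common library total, which took 61.3% of the variance. The second, with 11.2%, set shGFP replicate 1 apart from the other libraries. Mitochondrial transcripts took 3.66% to 3.83% of the counts in shGFP and 3.99% to 4.07% with hairpin 1. The luminal identity of the line was present in both groups: 16 of 17 luminal prostate markers averaged at least 1 CPM, with a summed level of 2706 to 2750 CPM in shGFP and 3049 to 3085 CPM with hairpin 1. Of 11 basal markers the summed level was 45.0 to 47.4 and 44.6 to 48.1 CPM, and KRT5, a keratin that defines basal cells, was at 0 in all 6 libraries. Endothelial markers summed to at most 0.568 CPM, and the T cell, B cell and natural killer genes CD3D, CD3E, MS4A1 and NKG7 and the leukocyte gene PTPRC were at 0. Fibroblast and smooth muscle markers summed to 51.5 to 52.9 CPM in shGFP and 41.7 to 45.9 CPM with hairpin 1, most of it TAGLN, an actin-binding gene, and the smooth muscle myosin MYH11 was at 0.

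The targeted mRNA, CHD9 (ENSG00000177200.17), lies on chromosome 16, 53055033 to 53329150, plus strand of GRCh38, and every hairpin 1 library had less of it than any shGFP library. It had 433, 466 and 607 counts in shGFP and 298, 375 and 399 with hairpin 1. This corresponds to 22.7, 20.5 and 23.0 CPM in shGFP and 14.7, 16.6 and 14.8 CPM with hairpin 1. The groups do not overlap. The mean went from 22.1 ± 1.38 to 15.4 ± 1.05 CPM (SD, n = 3 each). CHD9 fell to 0.696 of the control level (a log2 fold change of -0.52 with SE 0.07; adjusted p = 2.1e-07 by edgeR's quasi-likelihood test and the Benjamini-Hochberg method). After a correction for GC content and length CHD9 was still called lower, by less (-0.38). Of the 9 other genes with a CHD symbol, CHD1, a remodeller that reads methylated histone H3, fell further, by 0.62 on the log2 scale (from 63.8 to 41.5 CPM). CHD5, a gene mostly of the nervous system, rose by 0.46 (from 15.6 to 21.4 CPM). CHD3, CHD6, CHD7 and CHD4 passed the test with log2 fold changes of 0.10, 0.10, 0.15 and 0.25, but none did after a GC and length correction (-0.04, 0.04, 0.06 and 0.15). CHD8, CHD1L and CHD2, at -0.05, 0.01 and 0.01, did not pass, although CHD8 was called lower after that correction (-0.18). Over the 10 genes with a CHD symbol, where CHD1L is counted by its name only, 5 were higher and 2 lower, and 1 and 3 corrected.

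**Figure D1:**
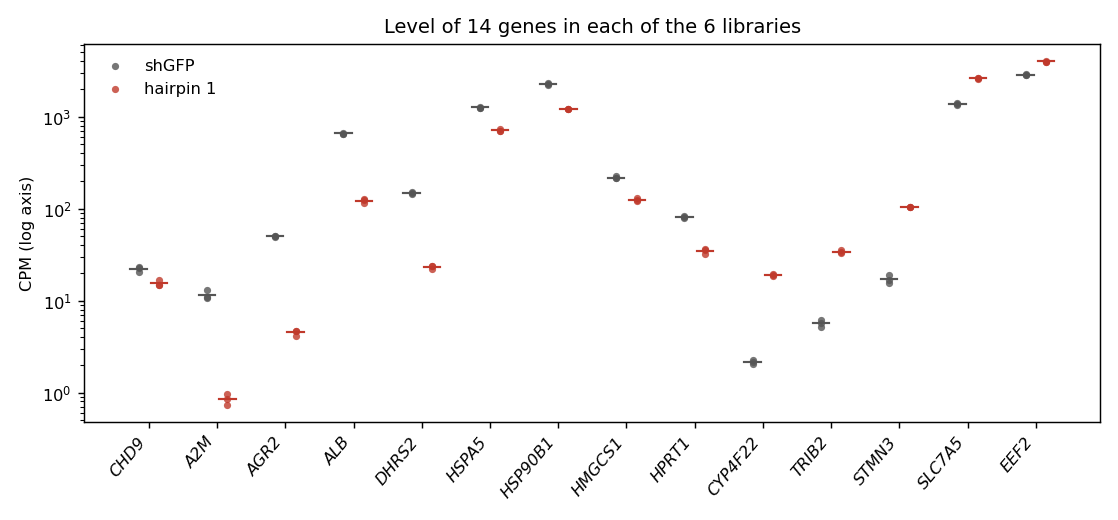
Level of 14 genes, in CPM on a log axis, in each of 3 shGFP and 3 hairpin 1 libraries; each point is a library and each bar the mean of a group. CHD9 is lower by less than most of the other genes shown, and for every gene in the plot the 2 groups do not overlap.

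About 1 in 2 tested genes changed. At an adjusted p under 0.05, 8048 of 16346 genes (49.2%) passed the edgeR test, 4045 of them higher (24.7%) and 4003 lower (24.5%). Most were modest: called log2 fold changes had a median size of 0.32, and 40.1% of the called genes moved by less than 1.2-fold. More than 1.5-fold changes were found for 1815 called genes, 928 higher and 887 lower, more than 2-fold changes for 631, 299 higher and 332 lower, and more than 4-fold changes for 84, 31 higher and 53 lower. The share called followed the level of the gene. It was 16.1% of the 1991 genes under 1 CPM and 88.9% of the 90 genes in the highest band of CPM, of which 65 were higher and 15 lower. The 3 libraries of one group lay wholly above those of the other for 7654 of the called genes and overlapped for 394. Among all 16346 tested genes the groups did not overlap for 8997, of which 1343 were not called. Every count of list members below is to be read against the shares of 24.7% higher and 24.5% lower, and every list median against -0.001, the median log2 fold change of all tested genes.

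**Figure D2:**
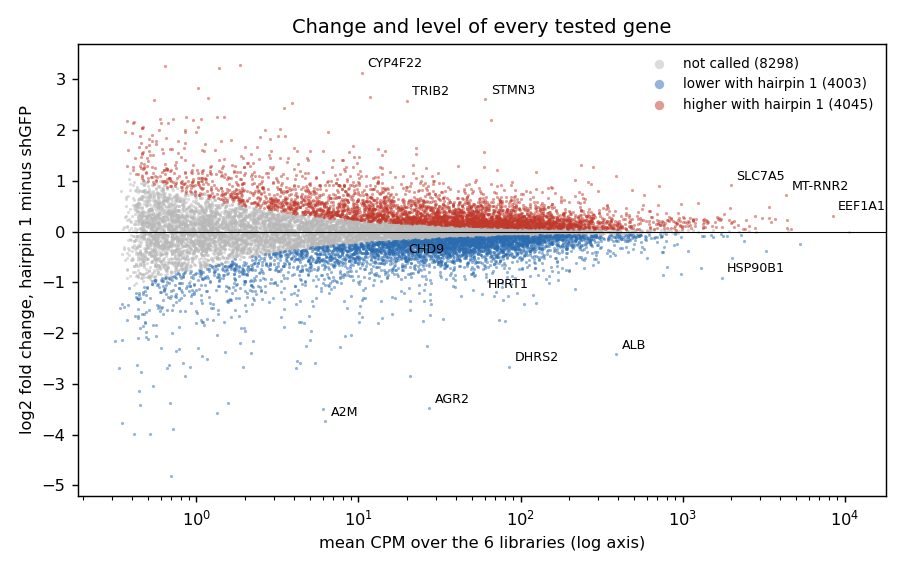
Log2 fold change of hairpin 1 minus shGFP against the mean CPM over the 6 libraries (log axis) for the 16346 tested genes, coloured by the edgeR call. The 4045 higher and 4003 lower genes lie on both sides of 0 at every level, and CHD9, at -0.52, lies well inside their range.

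The direction of a change went with base composition. In the lowest of 5 equal groups of genes by exonic GC content (26.7% to 41.1%), 9.18% were higher and 49.1% lower, with a median log2 fold change of -0.18. In the highest group (58.4% to 85.5%), 44.9% were higher and 9.45% lower, with a median of 0.15. The groups in between followed in order. By exonic length the medians ran only from 0.02 to -0.01. After a correction of each library for GC content and length, 3781 genes were higher and 3916 lower, 5715 of the calls were shared with the uncorrected test, and 196 genes were called in the opposite direction. The corrected counts are therefore given beside each gene group. The part of base composition in any single change was not tested.

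**Figure D3:**
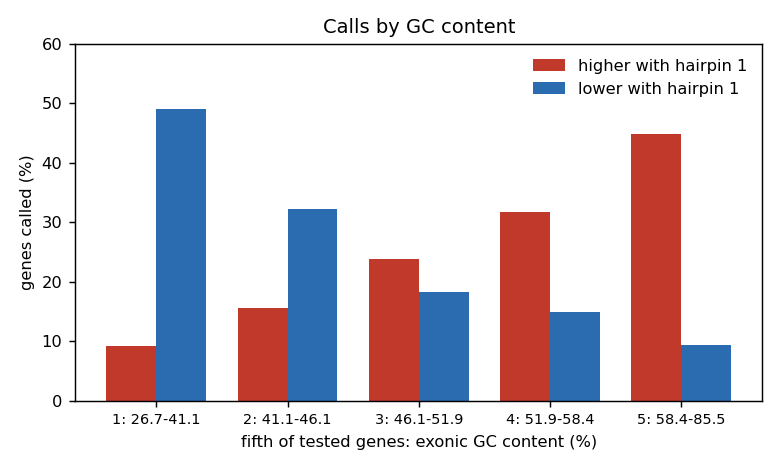
Share of tested genes called higher (red) and lower (blue) with hairpin 1, in percent, in 5 equal groups of genes by exonic GC content. The share higher climbs from 9.18% to 44.9% and the share lower drops from 49.1% to 9.45% from the lowest to the highest group.

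Genes that fold proteins in the endoplasmic reticulum (ER) were lower. This compartment holds the chaperones and oxidoreductases that fold secreted and membrane proteins, and when unfolded protein accumulates the sensors IRE1, PERK and ATF6 raise the transcription of these genes, in part through promoter elements bound by ATF6 and XBP1. Of 19 ER chaperones and folding factors tested, 16 were lower, 1 higher and 2 not called, with a median log2 fold change of -0.51 (15 lower and 2 higher after the GC and length correction). HSPA5, the chaperone BiP, had 1253, 1249.7 and 1271 CPM in shGFP and 698, 701 and 725 CPM with hairpin 1. HSP90B1, the ER member of the HSP90 family, had 2276, 2213 and 2327 CPM in shGFP and 1202, 1207 and 1222 CPM with hairpin 1. Calreticulin, CALR, a lectin chaperone, had 2403, 2376 and 2382 CPM in shGFP and 1664, 1674 and 1688 CPM with hairpin 1. In none of the 3 genes did the groups overlap, and the log2 fold changes were -0.83, -0.91 and -0.51 (SE 0.02, 0.02 and 0.01; edgeR adjusted p = 4.3e-30, 4.9e-32 and 2.2e-26).

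The classical element of such promoters is CCAAT followed after 9 bases by CCACG. In the RefSeq promoters of GRCh38.p14 (250 bases before each start, both strands searched) it is rare: 22 of 27305 promoters hold it (0.0806%). Among the 11332 tested genes with a promoter in the table, 14 hold it, and 11 of these were lower, 1 was higher and 2 were not called, with a median log2 fold change of -0.45. That is 0.347% of the lower, 0.0335% of the higher and 0.0386% of the uncalled genes. These matches are a description, not a test or a sign of binding. The promoters of 2 chaperone genes are shown because both fell strongly, HSP90B1 with the element at 2 places and HSPA5 at 1. The capitals mark the matches, read on the strand of the gene, and a match on the other strand appears as CGTGG followed after 9 bases by ATTGG. The windows are chr12:103930160-103930409 (plus strand) and chr9:125241344-125241593 (minus strand).
HSP90B1: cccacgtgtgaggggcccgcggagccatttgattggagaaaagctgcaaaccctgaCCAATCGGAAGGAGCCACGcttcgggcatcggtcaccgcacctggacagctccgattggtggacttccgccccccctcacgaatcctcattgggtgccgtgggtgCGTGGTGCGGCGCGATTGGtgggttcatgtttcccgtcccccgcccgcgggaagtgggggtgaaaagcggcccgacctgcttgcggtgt
HSPA5: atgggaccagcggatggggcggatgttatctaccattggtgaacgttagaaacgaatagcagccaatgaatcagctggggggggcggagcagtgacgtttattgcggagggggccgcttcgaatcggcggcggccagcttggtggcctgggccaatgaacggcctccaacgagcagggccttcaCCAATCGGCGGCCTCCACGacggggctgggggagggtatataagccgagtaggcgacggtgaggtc

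The 19-base matches of the other lower genes are shown to compare the 9 bases between the fixed ends, which differ from gene to gene. Each is read 5′ to 3′ on the strand that carries CCAAT, with the fixed ends in capitals.
CALR, a lectin chaperone (log2 fold change -0.51, chr19:12938384-12938402): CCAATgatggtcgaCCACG
XBP1, the spliced transcription factor of the response (-0.37, chr22:28800603-28800621): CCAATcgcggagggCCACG
CRELD2, an ER stress-induced secreted factor (-0.50, chr22:49918554-49918572): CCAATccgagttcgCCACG
FICD, which modifies BiP with AMP (-0.55, chr12:108515123-108515141): CCAATgggagtggcCCACG
ERO1B, an oxidase of disulfide isomerases (-0.47, chr1:236282183-236282201): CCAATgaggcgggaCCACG
SERP1, a translocon-associated protein (-0.42, chr3:150546710-150546728): CCAATtcgctgtctCCACG
TRIM5, a cytosolic restriction factor outside the secretory pathway (-0.75, chr11:5685115-5685133): CCAATggcatttctCCACG

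Matches can be shared. CRELD2 and ALG12 start on opposite strands around the same match, and so do SERP1 and EIF2A, so the 11 lower genes hold 10 different matches; ALG12 fell by 0.13 and EIF2A by 0.29 on the log2 scale. CANX, calnexin, and ZNF17 hold the element and did not pass, with log2 fold changes of -0.04 and 0.18, and TMEM120A holds it and rose by 0.28. ERO1B did not pass after the GC and length correction (-0.24). Within the lists of the secretory pathway, 8 members with the element had a median log2 fold change of -0.49, 7 of them lower, and 131 matched members without it had a median of -0.18, 81 of them lower. The other motifs searched were more common. TGACGTCA, the cyclic AMP response element, was in 2.07% of the promoters of higher, 3.32% of lower and 2.74% of uncalled genes. CACCCCAC, a sterol regulatory element, was in 2.31%, 1.45% and 2.47%, TGACGTGG, an ATF site, in 0.703%, 0.884% and 0.696%, TGACTCA, the AP-1 site, in 2.44%, 2.05% and 2.40%, and TTGCATCA, an amino acid response element, in 0.368%, 0.410% and 0.406%. Among all 27305 promoters the shares were 1.77%, 2.37%, 0.667%, 4.16% and 0.820% in the same order.

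The rest of the secretory machinery was lower as well, by less. Of 21 disulfide isomerases and their partners, 14 were lower, 3 higher and 4 not called (median -0.26; 12 lower and 3 higher corrected). AGR2, a secreted isomerase that is highly expressed in prostate and other adenocarcinomas, stood apart with 50.05, 50.9 and 49.4 CPM in shGFP and 4.68, 4.73 and 4.12 CPM with hairpin 1. Its hairpin 1 libraries lay far below its lowest control library (log2 fold change -3.48, SE 0.07, edgeR adjusted p = 5.8e-30). PDIA4 had 982, 977 and 978 CPM in shGFP and 547, 535 and 545 CPM with hairpin 1, without overlap, with a log2 fold change of -0.85. P4HB, the abundant isomerase PDI, did not pass, at -0.02, but was called lower after correction (-0.17), and ERP29 and PDIA2 rose by 0.15 and 0.51. Of 24 genes of the translocon, the channel through which proteins enter the ER, and of signal peptidase, 17 were lower and 2 higher (median -0.19; 15 and 4 corrected). The largest falls were those of SSR1 (0.87 on the log2 scale), SEC11A, a catalytic subunit of signal peptidase (0.87), and SPCS3 (0.71), while SRP9, of the signal recognition particle, rose by 0.45.

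ER-associated degradation, which sends misfolded proteins to the proteasome, had 14 of 21 genes lower, 4 higher and 3 not called (median -0.21; 14 and 3 corrected). SEL1L, the scaffold of the HRD1 ligase, fell by 0.58 and HERPUD1 by 0.50 on the log2 scale. DERL1, a channel component, went the other way, from 59.1 to 117 CPM, a rise of 0.98. Among the oligosaccharyltransferase and N-glycan precursor genes 17 of 28 were lower and 4 higher (median -0.12), of which 11 lower and 5 higher after correction, with TUSC3 falling by 0.50. Genes of the COP vesicles that move cargo between ER and Golgi had 16 of 32 lower and 6 higher (median -0.10), but 13 and 8 after correction, when the median was -0.01. LMAN1, a cargo receptor for coagulation factors, fell by 0.51. Of 13 sensors and transcription factors of the response, 6 were lower, 1 higher and 6 not called (median -0.09; 9 and 3 corrected). EIF2AK3, the sensor PERK, fell by 0.65 and XBP1 by 0.37, whereas ERN1, the sensor IRE1, and ATF6 did not pass, at 0.01 and -0.04, and ATF6 was called higher after correction (0.10).

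**Figure D4:**
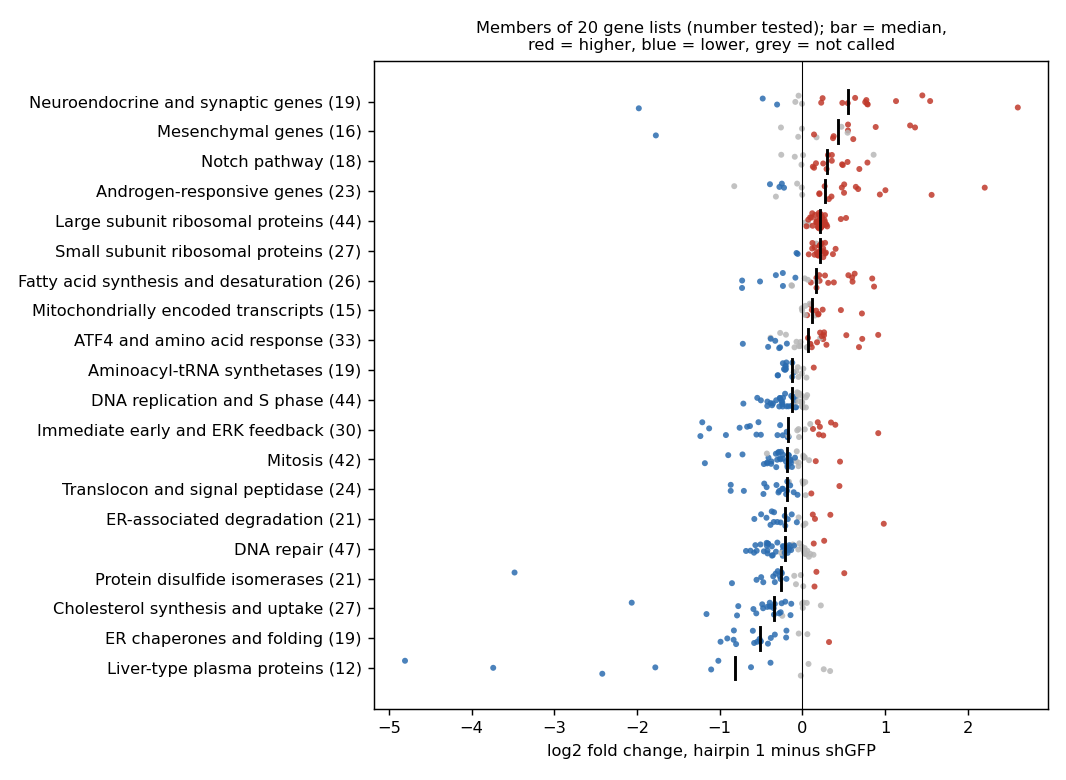
Log2 fold change of hairpin 1 minus shGFP for each tested member of 20 gene lists, with the list median as a black bar; red members were higher, blue lower and grey not called. Medians run from -0.82 for liver-type plasma proteins and -0.51 for ER chaperones to 0.55 for neuroendocrine and synaptic genes.

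Cholesterol genes fell without exception among those called. Cells make cholesterol from acetyl-CoA through HMG-CoA and squalene, and the transcription factor SREBP2 raises these genes and those of sterol uptake when sterols are short. Of 27 genes of synthesis and uptake, 21 were lower, 0 higher and 6 not called (median -0.34; 24 lower and 0 higher corrected), against 24.5% of all genes lower. HMGCS1, which makes HMG-CoA, had 213, 213 and 225 CPM in shGFP and 122, 132 and 123 CPM with hairpin 1. STARD4, a carrier of sterols between membranes, had 14.4, 12.8 and 12.9 CPM in shGFP and 2.27, 4.02 and 3.19 CPM with hairpin 1. The groups did not overlap in either, and the log2 fold changes were -0.79 and -2.06 (SE 0.03 and 0.13; edgeR adjusted p = 3.6e-22 and 3.8e-16). SREBF2, which encodes SREBP2, fell by 0.14 and INSIG1, the sterol-regulated anchor of SREBP, by 0.43. SCAP (-0.0038), FDPS (0.01), TM7SF2 (0.01), LSS (0.05) and FDFT1 (-0.24) were among those that did not pass, although SCAP, FDPS and TM7SF2 were called lower after correction (-0.22, -0.09 and -0.20).

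Fatty acid genes were divided. Of 26, 14 were higher, 7 lower and 5 not called (median 0.17; 12 and 8 corrected, with a median of 0.05). The desaturase SCD fell by 0.24 on the log2 scale (from 5744 to 4874 CPM), FADS1 by 0.51 and ACSL3, an acyl-CoA ligase of lipid droplets, by 0.73. PLIN2, the coat protein of lipid droplets, rose by 0.87, ACSL1 by 0.84 and DGAT2, which makes triglyceride, by 0.56. Of 24 genes of fatty acid oxidation and PPAR targets 7 were lower and 6 higher (8 and 7 corrected), and ACAA2, a mitochondrial thiolase, fell by 0.81. PDK4 and CPT1A, which favour oxidation of fat, rose by 0.52 and 0.29.

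Most ribosomal protein mRNAs were higher, by small amounts. Of 44 large-subunit genes tested, 41 were higher, 0 lower and 3 not called (median 0.21; 40 higher and 1 lower corrected), against 24.7% of all genes higher. Of 27 small-subunit genes, 24 were higher, 2 lower and 1 not called (median 0.21; 23 and 2 corrected). RPL3 had 2479, 2505 and 2494 CPM in shGFP and 3066, 3039 and 3101 CPM with hairpin 1. RPSA had 2788, 2805 and 2801 CPM in shGFP and 3384, 3364 and 3417 CPM with hairpin 1. RPL13A had 1661, 1610.5 and 1667 CPM in shGFP and 2320.4, 2283 and 2214 CPM with hairpin 1. The hairpin 1 libraries lay above all controls in each of these, by 0.30, 0.28 and 0.46 on the log2 scale, and RPL22 rose most among the large-subunit genes, by 0.53. The lower small-subunit genes were FAU (-0.07) and RPS26 (-0.06), the latter not called after correction. RPL17, RPL26 and RPS10, listed at 3.21, 7.84 and 1.55 CPM in shGFP, did not pass. The read counter is not given in the sources used here, so these levels may miss reads that fit overlapping genes or the many processed pseudogenes of ribosomal proteins. The elongation factors EEF2, which moves the ribosome, and EEF1A1, which brings in the aminoacyl-tRNA, belong to the same class of mRNA with a 5′ terminal pyrimidine tract. EEF2 had 2859, 2878 and 2813 CPM in shGFP and 4014, 3967 and 3971 CPM with hairpin 1, and EEF1A1 had 7564, 7459 and 7526 CPM in shGFP and 9279, 9341 and 9409 CPM with hairpin 1, rises of 0.48 and 0.31 without overlap.

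Initiation factors and ribosome assembly did not follow. Of 29 initiation factors 7 were higher and 12 lower (median -0.03; 9 and 10 corrected), with EIF4B, itself of the pyrimidine-tract class, higher by 0.24 and EIF5B and EIF5 lower by 0.33 and 0.32 on the log2 scale. Of 27 ribosome biogenesis genes 9 were higher and 8 lower (median 0.01; 8 and 5 corrected). Aminoacyl-tRNA synthetases, which charge tRNAs, had 12 of 19 lower, 1 higher and 6 not called (median -0.12; 12 and 2 corrected), led by EPRS1 (0.30 lower on the log2 scale), NARS1 (0.29) and AARS1 (0.24). The ATF4 program, which responds to a shortage of amino acids, was mixed: 14 of 33 were higher, 7 lower and 12 not called (median 0.06), but 9 higher and 13 lower after correction, with a median of -0.06. SLC7A5, the leucine transporter LAT1, had 1382, 1412 and 1345 CPM in shGFP and 2634, 2577 and 2603 CPM with hairpin 1. Its partner chain SLC3A2 rose by 0.72, and SLC7A5 by 0.92 (SE 0.02, edgeR adjusted p = 2.2e-32), the largest gain of CPM among all called genes apart from MT-RNR2 and EEF1A1. SLC38A2, a transporter of small neutral amino acids, had 1601, 1574 and 1677 CPM in shGFP and 980.5, 994 and 971 CPM with hairpin 1, with a log2 fold change of -0.72. ATF4 itself (-0.02), TRIB3 (-0.04) and ASNS (-0.20) did not pass, although ATF4 and TRIB3 were called lower after correction (-0.10 and -0.21).

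Replication and mitosis genes were lower. Of 44 genes of DNA replication and S phase, 27 were lower, 0 higher and 17 not called (median -0.13; 27 and 2 corrected). CCNE2, cyclin E2, had 46.2, 43.0 and 47.6 CPM in shGFP and 26.4, 28.7 and 28.2 CPM with hairpin 1. RRM2, the regulated subunit of ribonucleotide reductase, had 336, 339 and 341 CPM in shGFP and 228, 233 and 234 CPM with hairpin 1. The groups were apart in both, with log2 fold changes of -0.71 and -0.55. MCM10 fell by 0.50, CDC6 by 0.38 and E2F1 by 0.25, while 5 of the 6 subunits of the MCM2-7 helicase did not pass (MCM2 -0.03, MCM3 -0.01, MCM4 0.04, MCM5 -0.05 and MCM6 0.0042) and MCM7 fell by 0.19. After correction MCM2 and MCM5 were called lower as well (-0.18 and -0.19) and MCM6 higher (0.12). Of 42 mitosis genes, 30 were lower, 2 higher and 10 not called (median -0.19; 26 and 3 corrected). CENPE, a kinetochore motor, had 98.6, 92.8 and 101 CPM in shGFP and 44.3, 43.8 and 41.5 CPM with hairpin 1, with a log2 fold change of -1.18 without overlap, and HMMR and ECT2 fell by 0.90 and 0.72. The 2 that rose were ANLN, a scaffold of the cleavage furrow (0.45), and the proliferation antigen MKI67 (0.16), while AURKA (0.02) and PLK1 (0.01) did not pass; PLK1 was called lower after correction (-0.12).

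Among regulators of the cycle, CDKN1A, the inhibitor p21, fell by 0.71 (from 308 to 188 CPM), CDKN2B, the inhibitor p15, by 0.96, and CCND1, cyclin D1, by 0.38 (from 3695 to 2838 CPM). RB1 fell by 0.48 and its relative RBL1, p107, rose by 0.56; over the list of 19, 8 were higher and 7 lower (4 and 6 corrected). DNA repair had 31 of 47 genes lower, 2 higher and 14 not called (median -0.21), and 23 and 4 after correction. TOPBP1, a checkpoint scaffold, fell by 0.55, and BRCA1 and BRCA2 by 0.42 and 0.42, while PRKDC, a kinase of end joining, rose by 0.26 and CHEK2 by 0.14, the latter not called after correction (0.11). Of 26 genes of the BCL2 family, caspases and inhibitors of apoptosis, 6 were higher and 9 lower (7 and 10 corrected). BIRC3 fell by 1.99 (from 1.13 to 0.293 CPM), and the killers BIK, BAK1 and BOK rose by 0.56, 0.50 and 0.44.

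Androgen-responsive genes leaned higher. Androgens are the steroid hormones on which the luminal prostate depends. Of 23 such genes, 14 were higher, 4 lower and 5 not called (median 0.27; 15 and 4 corrected). NDRG1, which hypoxia also raises, had 31.1, 28.3 and 30.8 CPM in shGFP and 89.7, 86.7 and 90.0 CPM with hairpin 1. KLK4, a kallikrein protease, had 189, 190.2 and 185 CPM in shGFP and 358, 358 and 363 CPM with hairpin 1. All 3 hairpin 1 libraries exceeded all controls in both, and the rises were 1.56 and 0.94 on the log2 scale (SE 0.04 and 0.02; edgeR adjusted p = 4.1e-26 and 7.1e-28). KLK3, prostate-specific antigen, rose by 0.50, KLK2 by 0.48, TMPRSS2, the fusion partner of ERG in many prostate cancers, by 0.67 and FKBP5, a cochaperone of steroid receptors, by 0.32. ELL2, C1orf116, MPHOSPH9 and SLC45A3 fell, by 0.39, 0.28, 0.25 and 0.22, of which MPHOSPH9 was not called after correction (-0.08).

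GATA2, a pioneer transcription factor, had 166, 168 and 161 CPM in shGFP and 404, 391.6 and 398 CPM with hairpin 1, a rise of 1.27 without overlap, and HOXB13 rose by 0.70. FOXA1, another pioneer factor, fell by 0.31, the glucocorticoid receptor gene NR3C1 by 0.62 and the ETS factor ETV1 by 1.21. In steroid metabolism the glucuronosyltransferases, a family with members that inactivate androgens, fell most. UGT2B28 fell by 2.66 on the log2 scale (from 1.58 to 0.248 CPM). UGT2B11 had 8.64, 9.62 and 9.63 CPM in shGFP and 1.58, 1.502 and 1.56 CPM with hairpin 1. UGT2B15 had 8.69, 7.78 and 7.81 CPM in shGFP and 1.92, 2.38 and 1.93 CPM with hairpin 1. The log2 fold changes of UGT2B11 and UGT2B15 were -2.59 and -1.96. SRD5A1, a reductase that makes dihydrotestosterone, rose by 0.40 and SRD5A3 fell by 0.46; over the list, 2 of 13 were higher and 5 lower (4 and 4 corrected). Among surface antigens, with 6 of 14 higher and 5 lower (7 and 6 corrected), CD24 fell by 1.63 (from 24.4 to 7.87 CPM) and FOLH1, prostate-specific membrane antigen, by 0.35, while CD44 rose by 0.61.

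Growth factor signalling moved in several directions. Of 30 immediate early genes and feedback inhibitors of the ERK pathway, 16 were lower, 8 higher and 6 not called (median -0.18; 17 and 4 corrected). The inhibitors SPRY4, DUSP4 and DUSP6 fell by 1.23, 0.76 and 0.56 on the log2 scale and EGR1 by 0.67, whereas MYC rose by 0.40 and SPRED1 by 0.35. Of 20 receptor tyrosine kinases 10 were higher and 3 lower (6 and 4 corrected): MET, the hepatocyte growth factor receptor, fell by 1.37 (from 36.5 to 14.1 CPM) and ERBB4 by 1.203, and EGFR and IGF1R rose by 0.54 and 0.55. Notch genes had 13 of 18 higher, 0 lower and 5 not called (median 0.30), but 9 higher and 3 lower after correction; with a median GC content of 62.8%, against 48.8% for all tested genes, this was the most GC-rich of the lists. NOTCH1 passed at 0.29 and not after correction (0.04), while LFNG, HEYL and JAG2 rose by 0.69, 0.79 and 0.49 and passed both ways.

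The Wnt list had 11 of 28 higher and 7 lower (10 and 6 corrected). DKK1, a secreted Wnt inhibitor, had 49.7, 52.0 and 52.3 CPM in shGFP and 15.8, 14.97 and 15.99 CPM with hairpin 1, with a log2 fold change of -1.72 without overlap, and AXIN2, a common target of the pathway, and the ligand WNT3A rose by 0.66 and 1.11. Among TGF-beta, BMP and activin genes, 10 of 32 were higher and 11 lower (13 and 9 corrected). INHBB, the beta B chain of inhibin and activin, had 6.596, 6.33 and 6.37 CPM in shGFP and 19.5, 20.98 and 19.5 CPM with hairpin 1, a rise of 1.64, while INHBA, the beta A chain, fell by 2.30 (from 1.01 to 0.192 CPM) and BMP2 by 1.15. Of 20 YAP and TEAD targets and partners 5 were higher and 6 lower (5 and 8 corrected). The matricellular genes CCN1 and CCN2 fell by 1.05 (from 8.73 to 4.19 CPM) and 2.51 (from 1.99 to 0.342 CPM), and TEAD3 rose by 0.96. In the protein kinase C and calcium list, with 10 of 28 higher and 8 lower (10 of each corrected), PRKCA, protein kinase C alpha, had 10.99, 11.3 and 10.7 CPM in shGFP and 33.2, 35.2 and 35.2 CPM with hairpin 1, a rise of 1.65, and PLCB1 fell by 0.92.

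Several genes of other tissues were among the largest changes; in bulk RNA, fewer cells that express a gene and less of its RNA per cell cannot be told apart. Of 12 plasma protein genes of the liver type, 8 were lower, 0 higher and 4 not called (median -0.82; 8 and 0 corrected). ALB, albumin, had 670.0, 653 and 648 CPM in shGFP and 124, 116.5 and 128 CPM with hairpin 1. A2M, alpha-2-macroglobulin, a protease inhibitor, had 13.1, 10.8 and 10.9 CPM in shGFP and 0.740, 0.972 and 0.853 CPM with hairpin 1. AMBP, the precursor of bikunin, had 102, 105 and 101 CPM in shGFP and 52.2, 47.6 and 52.2 CPM with hairpin 1. The groups were apart in all 3, with log2 fold changes of -2.42, -3.74 and -1.02 (SE 0.03, 0.16 and 0.04; edgeR adjusted p = 2.2e-39, 1.3e-20 and 5.3e-22), and RBP4 (-0.02), TF (0.07), APOC1 (0.26) and APOA1 (0.34) did not pass. Of 19 neuroendocrine and synaptic genes, 13 were higher, 3 lower and 3 not called (median 0.55; 14 and 3 corrected). STMN3, a neuronal stathmin that binds tubulin, had 15.6, 19.0 and 16.7 CPM in shGFP and 104, 105 and 105 CPM with hairpin 1, a rise of 2.61 without overlap. SHANK1, a postsynaptic scaffold, rose by 1.45, SYP, synaptophysin, by 1.13 and SRRM4, a neural splicing factor, by 0.76, while CHGB, chromogranin B, SCG2, secretogranin II, and the neuronal factor POU3F2 fell by 1.98, 0.48 and 0.31. ENO2, neuron-specific enolase, did not pass, at -0.0047; after correction ENO2 was called lower (-0.09) and SCG2 was not called (-0.34).

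Of 16 mesenchymal genes, 9 were higher, 1 lower and 6 not called (median 0.43; 8 and 1 corrected). COL6A2, a chain of collagen VI, had 23.0, 23.9 and 24.0 CPM in shGFP and 56.8, 56.0 and 62.2 CPM with hairpin 1, a rise of 1.30; SNAI1, a repressor of E-cadherin, rose by 1.36 and CDH2, N-cadherin, by 0.38. VCAN, the proteoglycan versican, had 16.3, 14.6 and 15.6 CPM in shGFP and 4.83, 4.86 and 4.01 CPM with hairpin 1 and was the member that fell, by 1.77; VIM (-0.26) and FN1 (-0.01) did not pass. The summed fibroblast and smooth muscle markers, given above, were lower in every hairpin 1 library than in any control. Of the 6 tested, 3 fell, TAGLN among them (-0.41), and 2 rose, the collagen genes COL1A1 (0.55) and COL3A1 (0.89). Their part in the mesenchymal list was not tested. Of 30 junction and keratin genes of epithelia 15 were higher and 7 lower (9 and 9 corrected). CDH1, E-cadherin, rose by 0.12, and the desmosomal cadherin DSG2 fell by 1.03 (from 118 to 57.8 CPM). Of 29 HOX genes 7 were higher and 7 lower (5 and 9 corrected), with HOXA13 higher by 1.27 and HOXC10 lower by 0.43. ITGA6, an integrin of basal cells, rose by 1.88 (from 1.51 to 5.52 CPM) and LAMB3, a chain of laminin 332, fell by 1.16; of 17 integrins and laminins 5 were higher and 9 lower (3 and 6 corrected).

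Interferon response and antigen presentation genes leaned lower, and NF-kB genes higher, the latter less so after correction. Of 29 interferon response genes 13 were lower, 3 higher and 13 not called (median -0.14; 14 and 3 corrected), with STAT2, a transducer of interferon signals, lower by 0.48 and IFIH1, a sensor of double-stranded RNA, by 0.58; MX1 (0.02) and IRF3 (0.03) did not pass, and IRF3 was called lower after correction (-0.11). Of 10 class I antigen presentation genes 5 were lower and 1 higher (median -0.37; the same counts corrected). HLA-B and HLA-C, uncertain because HLA genes share sequence, fell by 1.09 and 0.82, and B2M, the class I light chain, rose by 0.28. Of 14 NF-kB genes 6 were higher and 2 lower, with a median of 0.17 (5 and 3 corrected, with a median of 0.075). TNFAIP2 rose by 0.96 and NFKBIA, the inhibitor IkB alpha, by 0.30, and RELB fell by 0.41.

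Transcripts of the mitochondrial genome leaned higher, and nuclear genes of energy metabolism changed in both directions. Mitochondrially encoded transcripts had 9 of 15 higher, 0 lower and 6 not called (median 0.11), and all 15 higher after correction. The ribosomal RNA MT-RNR2 had 3231, 3285 and 3332 CPM in shGFP and 5385, 5455 and 5382 CPM with hairpin 1, a rise of 0.72, whereas MT-CO1, of cytochrome oxidase, did not pass before correction, at -0.01. Nuclear genes of complex I had 4 of 36 higher and 9 lower (11 and 9 corrected), and those of complexes II to V 9 of 38 higher and 11 lower (14 and 7 corrected). In the TCA cycle 5 of 24 were higher and 12 lower (4 and 12 corrected): CS, citrate synthase, rose by 0.44, and PDHX and DLAT, of pyruvate dehydrogenase, fell by 0.54 and 0.39. Of 35 hypoxia and glycolysis genes 17 were higher and 6 lower, but 9 and 7 after correction; SLC16A3, the lactate exporter, rose by 0.65 and ADM fell by 1.596. Of 24 NRF2 and redox genes 9 were higher and 5 lower (10 and 7 corrected), where TKT, of the pentose phosphate pathway, rose by 0.36 and ABCC2, an export pump, fell by 1.09. The proteasome had 2 of 29 higher and 13 lower, and 10 of each after correction, with PSMB5, a catalytic subunit, higher by 0.67. Of 17 cytosolic heat shock genes 3 were higher and 8 lower (4 and 8 corrected), with HSPH1, a nucleotide exchange factor, lower by 0.48. Of 32 autophagy and lysosome genes 10 were higher and 9 lower (6 and 12 corrected), and of 25 nucleotide synthesis genes 7 were higher and 7 lower (7 and 4 corrected).

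Regulators of chromatin and RNA changed mostly by small amounts, and many of these calls were altered by the GC and length correction. BAF and PBAF subunits had 6 of 22 higher and 5 lower (6 and 10 corrected), Polycomb subunits 10 of 21 and 5 (11 and 4), acetyltransferases and deacetylases 8 of 21 and 5 (2 and 5), and methyltransferases of H3K4 and H3K36 8 of 15 and 1 (5 and 4). CBX2, a Polycomb reader, rose by 0.57 and SUZ12, a core subunit of PRC2, fell by 0.41. Clustered histone genes, most of whose transcripts end without a poly(A) tail, had 1 of 13 higher and 5 lower (median -0.42; the same counts corrected), with H1-2 at 13.0, 11.1 and 11.4 CPM in shGFP and 4.49, 4.55 and 4.60 CPM with hairpin 1, with a log2 fold change of -1.37. Of 19 genes that write, erase or read m6A, the subject of the series, 2 were higher, 9 lower and 8 not called (median -0.09; 4 and 8 corrected): RBM15B rose by 0.66, METTL14 fell by 0.41, and METTL3, the catalytic subunit, did not pass, at -0.03. SR and hnRNP splicing factors reversed their balance, from 5 of 24 higher and 11 lower to 16 and 4 after correction; their median GC content was 40.9%. In small RNA silencing, on which hairpins depend, 7 of 13 were higher and 3 lower (7 and 2 corrected), with AGO1 higher by 0.64 and AGO2 by 0.15, and of 14 nonsense-mediated decay genes 4 were higher and 3 lower (4 and 5 corrected).

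Among all genes of at least 5 CPM, the 15 largest falls were led by A2M, SPTSSB, AGR2 and TRGC1. SPTSSB, a subunit of the enzyme that starts sphingolipid synthesis, had 10.4, 11.4 and 11.6 CPM in shGFP and 0.641, 0.751 and 1.45 CPM with hairpin 1, with a log2 fold change of -3.50. TRGC1, a constant gene of the T cell receptor gamma locus that prostate cells transcribe, had 38.9, 35.5 and 35.8 CPM in shGFP and 5.52, 3.97 and 5.71 CPM with hairpin 1, with a log2 fold change of -2.85. DHRS2, a short-chain dehydrogenase, had 144, 149.9 and 147 CPM in shGFP and 23.7, 22.3 and 23.7 CPM with hairpin 1, with a log2 fold change of -2.66 (SE 0.04, edgeR adjusted p = 3.1e-34). The groups were apart in each. The other falls were TMEM45A (-2.27), SPOCK2, a proteoglycan (-2.25), SCIN, an actin-severing protein (-2.13), S100P, a calcium-binding protein (-2.03), and FLRT3 (-1.80), with ALB, UGT2B11, UGT2B15, STARD4 and VCAN given above.

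The 15 largest rises were led by CYP4F22, a fatty acid hydroxylase of the skin, with 2.04, 2.15 and 2.24 CPM in shGFP and 18.3, 19.1 and 19.4 CPM with hairpin 1. CYP1A2, a xenobiotic hydroxylase, had 2.62, 2.81 and 4.02 CPM in shGFP and 21.9, 19.4 and 19.8 CPM with hairpin 1. TRIB2, a pseudokinase, had 6.12, 5.23 and 5.69 CPM in shGFP and 33.4, 35.2 and 33.2 CPM with hairpin 1. The rises were 3.14, 2.66 and 2.58 on the log2 scale (edgeR adjusted p = 3.1e-23, 6.5e-21 and 4.7e-25), and the lowest hairpin 1 library was at least 4 times the highest control in each. The others reported are STMN3, CAMKV (1.97), SLC35F1 (1.69), PRKCA, INHBB, NMNAT2, which makes NAD in neurons (1.59), CARMIL2 (1.59), TLL1, a metalloprotease (1.58), TLE4, a corepressor (1.58), NDRG1 and OAF (1.53). Only PGLYRP2, a peptidoglycan-recognition gene, passed from under 0.5 CPM to at least 3 CPM, with 0.471, 0.395 and 0.190 CPM in shGFP and 3.75, 2.96 and 3.41 CPM with hairpin 1, and no called gene with a name of its own passed the other way. Ranked by the change in CPM, the 10 largest losses were HSP90B1, SCD, CCND1, CALR, SLC38A2, HSPA5, ALB, PDIA4, APLN, a peptide hormone gene (from 990.2 to 607 CPM), and TUBA1B, a tubulin (from 2555 to 2257 CPM), and the 10 largest gains were MT-RNR2, EEF1A1, SLC7A5, EEF2, RPS2, RPLP0, RPL8, RPL13A, RPSA and RPL3.

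Called genes were not spread evenly over the genome. On chromosome 22, 35.8% of 424 tested genes were higher and 12.5% lower, on chromosome 16 32.1% and 13.4% of 767, and on chromosome 19 31.1% and 14.2% of 1201. On chromosome 4, 15.9% of 567 were higher and 37.7% lower, and on chromosome 13 13.2% and 36.8% of 272. The first 3 are GC-rich chromosomes and the last are GC-poor, and the part of base composition in these shares was not tested. There were 9 runs of at least 4 neighbouring tested genes all called one way by more than 1.5-fold. On chromosome 4, 68646630 to 69295050, 5 genes fell, UGT2B15, UGT2B27P, UGT2B7, UGT2B11 and UGT2B28, copies of similar sequence whose reads can be hard to assign. On chromosome 7, 37683843 to 38318861, EPDR1, STARD3NL, TRGC2, TRGC1 and TRGV9 fell, and at 120950749 to 122310691 of the same chromosome ING3, FAM3C, PTPRZ1, AASS, FEZF1 and FEZF1-AS1 did. On chromosome 19, 15451624 to 15630638, RASAL3, PGLYRP2, CYP4F22 and CYP4F8 rose, and at 50906352 to 51084245 the kallikreins KLK4, KLK10, KLK11 and KLK14 did. The other runs were lower on chromosome 5 (50665899 to 52959210, with ISL1 and ITGA1, and 83052846 to 84384793, with XRCC4 and VCAN) and chromosome 6 (26956992 to 27146798, with 3 histone genes), and higher on chromosome 1 (904834 to 944581, with SAMD11).

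The 3 libraries of hairpin 2 against CHD9 allow a test of what differs between the hairpins. CHD9 itself was lower with hairpin 1, by a log2 difference of -0.28 from hairpin 2 (edgeR adjusted p = 0.0024). In a fit over all 9 libraries, 4921 of 16855 genes (29.2%) differed between hairpins 1 and 2, 2623 higher (15.6%) and 2298 lower (13.6%) with hairpin 1. Of the 15 largest falls given above, 12 differed, all 12 lower with hairpin 1, and of the 15 largest rises 14 differed, all 14 higher with hairpin 1. These genes were chosen for their change with hairpin 1, which favours that direction. Against the shared shGFP libraries, all 15 falls and all 15 rises were also called in the same direction with hairpin 2. The shared controls favour the same direction. The share of all tested genes called with hairpin 2 against shGFP is not given here, so these counts have no background beside them.

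Of the 10 genes that differed most between the hairpins, 5 each way, HPRT1 and POLE3 fell with hairpin 1 and were not called with hairpin 2. HPRT1, which salvages purines, had 81.4, 79.1 and 83.8 CPM in shGFP and 32.3, 36.5 and 35.7 CPM with hairpin 1, and a mean of 81.7 CPM with hairpin 2 when all 9 libraries were scaled together. POLE3, a histone-fold subunit of DNA polymerase epsilon, had 140.3, 125 and 134 CPM in shGFP and 57.7, 55.6 and 58.8 CPM with hairpin 1, and a mean of 131 CPM with hairpin 2. The differences between the hairpins were -1.22 and -1.18 (edgeR adjusted p = 7.1e-25 and 1.9e-26). EVX1, a homeobox gene beside the HOXA cluster, was the counterpart among the rises, with 8.06, 7.60 and 7.66 CPM in shGFP and 14.6, 13.6 and 15.03 CPM with hairpin 1 and a mean of 7.74 CPM with hairpin 2, a difference of 0.91 (edgeR adjusted p = 5.1e-10). AK5, an adenylate kinase of the brain, rose with hairpin 1, with 7.38, 7.21 and 7.13 CPM in shGFP and 22.2, 21.7 and 18.4 CPM with hairpin 1, and differed by 0.91 from hairpin 2. Outside these 10, other genes named above fell with hairpin 1 and were not called with hairpin 2. Among them were SEC11A (0.03 with hairpin 2 in the fit over all 9 libraries), EPRS1 (-0.01), NARS1 (-0.04) and AARS1 (0.02).

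Members of several lists differed between the hairpins, to be read against the 15.6% higher and 13.6% lower of all genes. Of the 44 large-subunit and 27 small-subunit ribosomal protein genes, 42 and 25 were higher with hairpin 1 than with hairpin 2, and 1 large-subunit gene was lower. Of the 10 genes with the largest loss of CPM, 8 were lower with hairpin 1 than with hairpin 2 and 1, CCND1, was higher, and all 10 with the largest gain were higher. These genes were also chosen for their change with hairpin 1. Against the shared shGFP libraries, all 10 losses and 6 of the 10 gains were called in the same direction with hairpin 2, and 0 in the opposite one. These counts too have no share of all genes beside them. RPLP0, a stalk protein, and EEF1A1 were at 0.27 and 0.31 with hairpin 1 and, in the fit over all 9 libraries, at -0.01 and 0.01 with hairpin 2. Of the ER chaperones 15 of 19 were lower with hairpin 1 than with hairpin 2 and 0 higher, of mitosis genes 35 of 42 and 0, of replication genes 27 of 44 and 0, and of DNA repair genes 23 of 47 and 1. Not every list went farther with hairpin 1. The ATF4 list, with 14 of 33 higher and 7 lower against shGFP, had 5 higher and 20 lower than with hairpin 2. The BCL2 family and caspase list, with 6 of 26 higher and 9 lower against shGFP, had 10 higher and 2 lower than with hairpin 2.

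**Figure D5:**
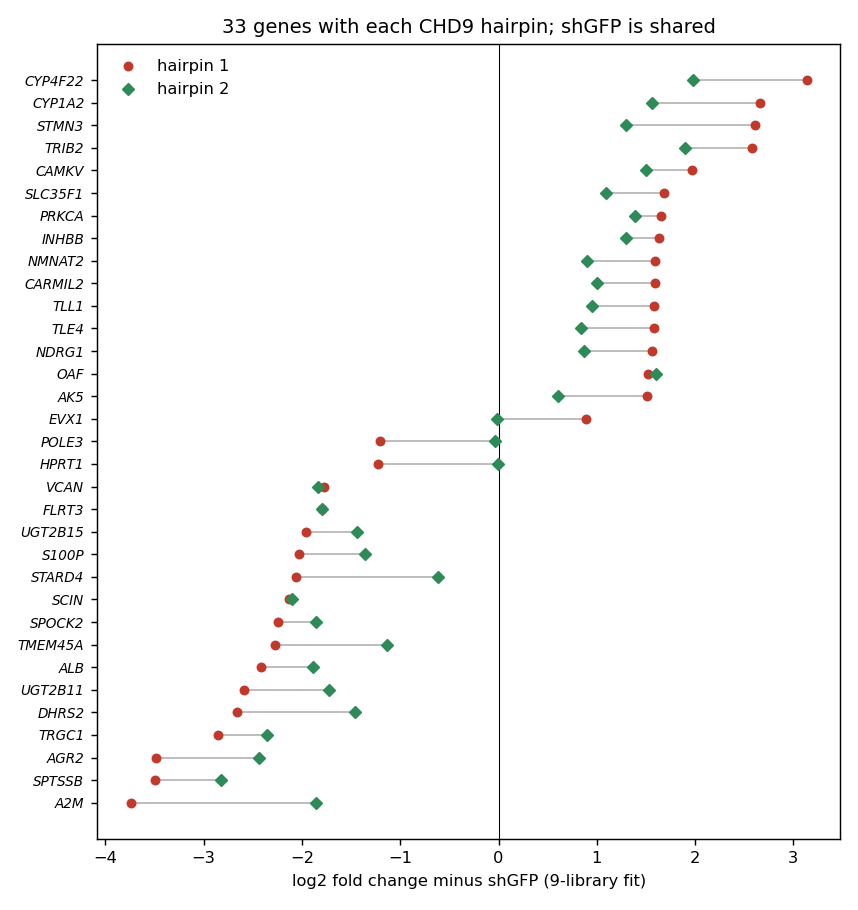
Log2 fold changes over shGFP of 33 genes, the 15 largest falls and 14 of the 15 largest rises with hairpin 1 and the genes that differ most between the hairpins, with hairpin 1 (red circles) and hairpin 2 (green diamonds) from the fit over all 9 libraries; both share the shGFP libraries. HPRT1, POLE3 and EVX1 lie near 0 with hairpin 2, while FLRT3, SCIN, VCAN and OAF lie at nearly the same place with both.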

How the data were processed

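Poly(A) RNA of 22Rv1 cells was sequenced in 6 libraries, 3 shGFP and 3 shCHD9_1, and each library was placed in its group by its title. Per the submitters' processing notes, Trim Galore, STAR, hg38 and DESeq2 were used; their versions, the program that counted reads, whether it used strand, and its gene annotation were not given in the sources used here. Raw counts of reads for each gene were deposited by the authors, without normalisation. Reads of overlapping, antisense or near-identical genes (HLA, histone, UGT2B and ribosomal protein genes) therefore cannot always be told apart.

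In edgeR 4.0.16, filterByExpr (minimum count 10) removed low genes, TMM scaled the libraries, and a quasi-likelihood model of the 6 libraries was fitted in R 4.3.3. The threshold was 0.05 after Benjamini-Hochberg adjustment over all 16346 genes. CPM are on scaled totals, and SE is the log2 fold change divided by the root of F. Hairpin 1 was tested against hairpin 2 in a fit of all 9 libraries. Positions, GC content and exonic length are those of GENCODE 29 on GRCh38, with GC values for 97.95% of tested genes. Promoters are RefSeq's for GRCh38.p14, matched by symbol.

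The members and the gene lists were chosen with earlier results of these data known, so list counts are descriptions, and no set test was run. The named genes are the CHD genes; the 15 highest and 15 lowest log2 fold changes at 5 CPM or more; the 10 largest gains and losses of CPM; genes passing between under 0.5 and at least 3 CPM; the 4 members with the lowest p in each list; and the 5 highest and 5 lowest differences between the hairpins. Clone names and pseudogenes were passed over, and other members appear where they describe a list. Some genes and lists are not reported here. Scripts were tested on simulated data. Alternatives were DESeq2 1.42.0, limma 3.58.1 with voom, other filters and thresholds, a minimum fold change, a GC and length correction, a replicate block and leaving out each library.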

Additional observations from a re-analysis of the deposited data

Results flagged for a closer look

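10 genes of at least 5 CPM differed most between the hairpins in the fit over all 9 libraries, given here as log2 differences of hairpin 1 minus hairpin 2. They were chosen for that difference, so the values are a description. Among the lower genes, A2M differed by -1.88, STARD4 by -1.45 and DHRS2 by -1.20; these fell with both hairpins and further with hairpin 1. HPRT1 differed by -1.22 and POLE3 by -1.18, with no call for hairpin 2 against shGFP. Among the higher genes, STMN3 differed by 1.31, CYP4F22 by 1.16, CYP1A2 by 1.10 and AK5 by 0.91, and EVX1 differed by 0.91 with a level near the control with hairpin 2. CHD9 itself was lower with hairpin 1 than with hairpin 2, by a log2 difference of -0.28, and its part in these values was not tested.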

How the results depend on the processing

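The counts of 4045 higher and 4003 lower genes stayed within 1.5 times under every alternative except a minimum fold change of 1.5 (edgeR glmTreat), which left 308 higher and 320 lower genes and under which CHD9 (log2 fold change -0.52) was not called (adjusted p = 1). Leaving out each library gave 3668 to 3825 higher and 3617 to 3859 lower genes, and DESeq2 gave 3476 and 3412. The log2 fold change of CHD9 was -0.58 to -0.49 without single libraries and -0.53 to -0.38 under the other alternatives. The value of -0.38 came from the GC and length correction. Between the hairpins, leaving out each library gave 2114 to 2359 higher and 1789 to 2269 lower genes. The replicate numbers did not pair the libraries (correlations of same-numbered deviations -0.0577 to 0.0184), and with the number as a block 3995 genes were higher and 3937 lower, or 2623 and 2309 between the hairpins. Of 283 named genes besides CHD9, the minimum fold change left 100 called or uncalled as before and ended the call of 183. Under the GC and length correction 258 kept their call, 14 lost it, 1 gained one and 10 changed sign, namely DNAJA1 (0.00), PSMD6 (0.014), NDUFA4 (0.023), NDUFB4 (0.062), UQCRB (0.064), COX6C (0.055), ATP5F1C (0.027), HNRNPU (0.021), CHD3 (-0.038) and SETD1B (-0.023), of which NDUFB4, UQCRB and COX6C passed in the new direction; the cause was not tested. That correction moved 36 of 132 list counts by over 1.5 times and the minimum fold change moved 119, against 1 to 11 under each other alternative. Of genes under 1 CPM 16.1% passed, against 60.6% of those at 10 to 100 CPM; the part of depth in this was not tested.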
